A study of Homo sapiens with 22 samples.

Results

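The comparison described here sets 3 arrays of JHOC5 cells that received virus #58 against IL-6 (IL-6 KD#58) beside 5 arrays of JHOC5 cells infected with the NT control lentivirus. These 8 arrays, chosen by their titles, are part of a series of 22. JHOC5 is an established line of ovarian clear cell carcinoma, an epithelial tumour. The line was kept in 10% serum, and both groups were infected, so the controls carry a lentivirus too. A single virus was used for IL-6, and its replicates carry the letters a, b and c. The NT replicates carry the letters a to e and belong to Experiments A to E. The knockdown titles name no experiment. It is not stated whether their letters refer to the same Experiments, or whether the knockdown arrays come from separate cultures. The reported fit did not use the letters, and a fit with the letter as a block is given below. The p-values therefore reflect the scatter among the arrays, some of which may be technical. The series also holds a second line, JHOC9, grown in 20% serum, with 3 IL-6 KD#58 and 5 NT arrays, and 3 JHOC5 arrays with the SPINK1 KD #9 virus, both used below as points of comparison. The JHOC9 IL-6 KD#58 arrays carry the letters b, d and e, and the JHOC5 SPINK1 arrays c, d and e, so letters are skipped in both groups.

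IL-6 is a secreted inflammatory cytokine. It binds the IL-6 receptor together with the shared subunit gp130, which activates JAK kinases and the transcription factor STAT3, and STAT3 in turn raises inhibitors of the pathway such as SOCS3. Clear cell carcinomas of the ovary are known for high IL-6 expression, and cells can respond to the IL-6 that they release themselves. The question was which transcripts differ in JHOC5 once a virus against IL-6 is introduced.

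A transcript cluster is the unit by which this array reads a transcribed region, and 65526 of them were measured. No gene names stand beside the cluster IDs in the files, so IL-6 itself, other genes of the pathway and cell type markers were not analysed here, and how far the virus lowered IL-6 was not measured. Clusters are given by ID, and no sequence is printed for them. Values are log2 signals. The median log2 signal of an array lay between 4.78 and 4.90 on the 8 arrays, and the median SD of a cluster was 0.117 among the IL-6 KD#58 arrays and 0.0956 among the NT arrays. The number of arrays limits the precision, and the median SE of a change was 0.0861 on the log2 scale. In such bulk RNA, fewer cells of a kind and less RNA per cell cannot be told apart.

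With the IL-6 virus 910 clusters changed, 1.39% of all tested, by limma's moderated test with a Benjamini-Hochberg adjusted p under 0.05. Falls outnumbered rises: 625 clusters were lower (0.954%) and 285 higher (0.435%) than with NT. Most changes were small. The median log2 change was -0.44 among the falls and 0.37 among the rises, against 0.02 over all clusters. At least 1.5-fold changes were reached by 169 falls and 37 rises, and 25 falls and 6 rises reached 2-fold. An unadjusted p under 0.05 was found for 5999 clusters, or 9.16%.

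The changes were also read without a model, by asking whether the 3 knockdown arrays lay outside the range of the 5 NT arrays. They did so for 4928 clusters, 7.52% of all, with 2621 clusters (4%) wholly above and 2307 (3.52%) wholly below the NT arrays. Of the called clusters, 597 falls and 282 rises were separated in this way, while 28 falls and 3 rises overlapped the NT range. The called clusters were selected for differing on the same arrays, so this separation describes them and adds no support.

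The largest rise was in TC08001062.hg.1, whose ID carries the chromosome code 8. Its log2 signal was 7.94, 7.54 and 8.001 on IL-6 KD#58 arrays a, b and c, against 6.48, 6.30, 6.64, 6.50 and 6.69 on NT arrays a to e. All knockdown arrays lay above all NT arrays. The means were 7.83 ± 0.25 with IL-6 KD#58 (SD, n = 3) and 6.52 ± 0.16 with NT (SD, n = 5). The log2 change was 1.31 ± 0.13 (SE), 2.475-fold on the linear scale, with a limma adjusted p of 4.15e-06.

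The next largest rise was in TC12003230.hg.1, with code 12. Its log2 signal was 9.14, 9.42 and 9.31 on the knockdown arrays, against 8.09, 8.15, 7.91, 7.94 and 7.85 on the NT arrays. The knockdown arrays again lay clear of the NT arrays, and its NT level stood at the 92.5th percentile of all clusters. The log2 change was 1.30 ± 0.10 (SE, 3 against 5 arrays), or 2.47-fold, with a limma adjusted p of 2.78e-07. Its call held in each of the 19 other settings tried, as did that of TC08001062.hg.1. These settings include the log2 of the deposited linear signal. It differs from the values used only by a constant per cluster, so it could not change a call.

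The largest fall was in TC09000323.hg.1, with code 9. Its log2 signal was 7.72, 7.53 and 8.39 on the knockdown arrays, against 9.11, 8.46, 9.65, 9.65 and 9.35 on the NT arrays. The groups were separated by a narrow gap, since knockdown array c lay just below NT array b. The cluster varied widely within both groups, with an SD of 0.45 among knockdown and 0.49 among NT arrays. The log2 change was -1.36 ± 0.27 (SE), a 2.58-fold fall, with a limma adjusted p of 8.96e-03. The call was lost in 4 of 19 settings. The limma adjusted p was 0.0635 without IL-6 knockdown replicate a, 0.0735 without replicate b, 0.0608 with the JHOC5 arrays alone and 0.0706 with the compared groups alone.

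The fall in TC01004414.hg.1, with code 1, was of nearly the same size, with an NT level at the 55.9th percentile of all clusters. Its log2 signal was 3.69, 4.21 and 3.48 on the knockdown arrays, against 5.12, 4.87, 5.01, 5.64 and 5.13 on the NT arrays. All knockdown arrays lay below all NT arrays and below the array medians. The log2 change was -1.36 ± 0.16 (SE, 3 against 5 arrays), with a limma adjusted p of 4.00e-05, and the call held in all 19 settings. Same-lettered arrays, read as differences of knockdown minus NT for letters a, b and c, gave -1.43, -0.66 and -1.53.

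**Figure D1:**
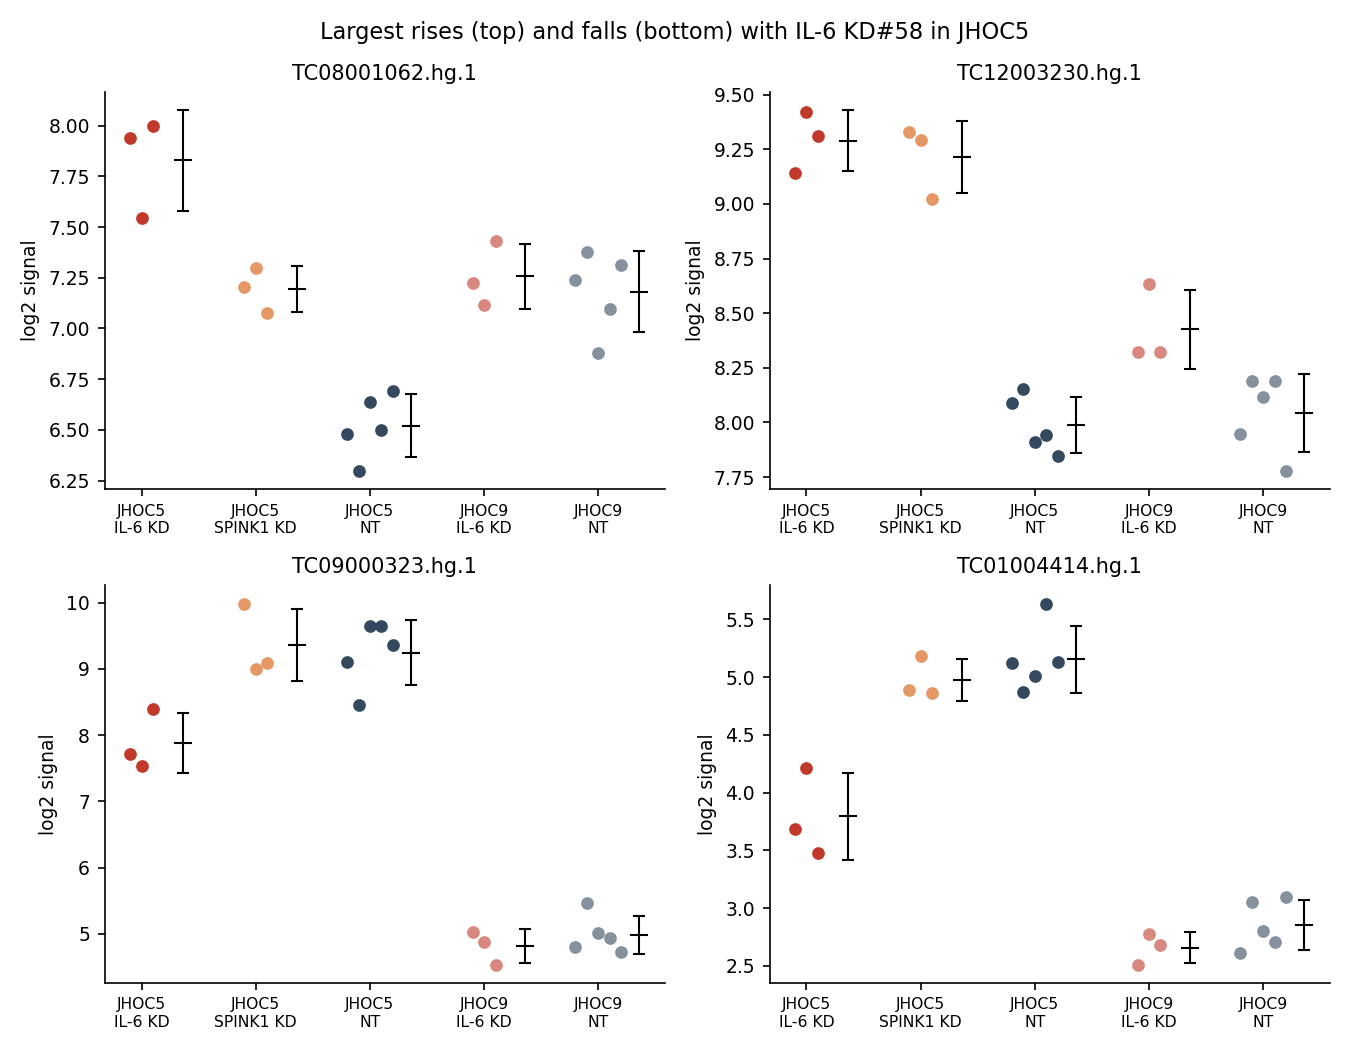
Log2 signal (y axis) of the clusters with the largest rises (top) and falls (bottom) with IL-6 KD#58 in JHOC5. Each point is 1 array, grouped on the x axis by line and virus, and bars beside the points show the mean and SD. In every panel the 3 JHOC5 IL-6 KD arrays lie apart from the 5 JHOC5 NT arrays, by the smallest gap in TC09000323.hg.1, while TC12003230.hg.1 is about as high with the SPINK1 virus.

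Called clusters were mostly bright ones. The median NT log2 signal was 7.33 for falls and 7.09 for rises, against 4.82 over all clusters. Of the 23559 clusters with an NT mean under 4, 0.161% were called, 14 lower and 24 higher. Between 4 and 6 the share was 0.58%, with 81 lower and 50 higher. It was 3.29% between 6 and 8, with 340 lower and 137 higher, and 5.39% at 8 and over, with 190 lower and 74 higher. Falls thus made up 36.8%, 61.8%, 71.3% and 72% of the calls from the dimmest to the brightest band. The median change over all clusters of a band lay between -0.02 and 0.04, and the median SE between 0.0792 and 0.0917.

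**Figure D2:**
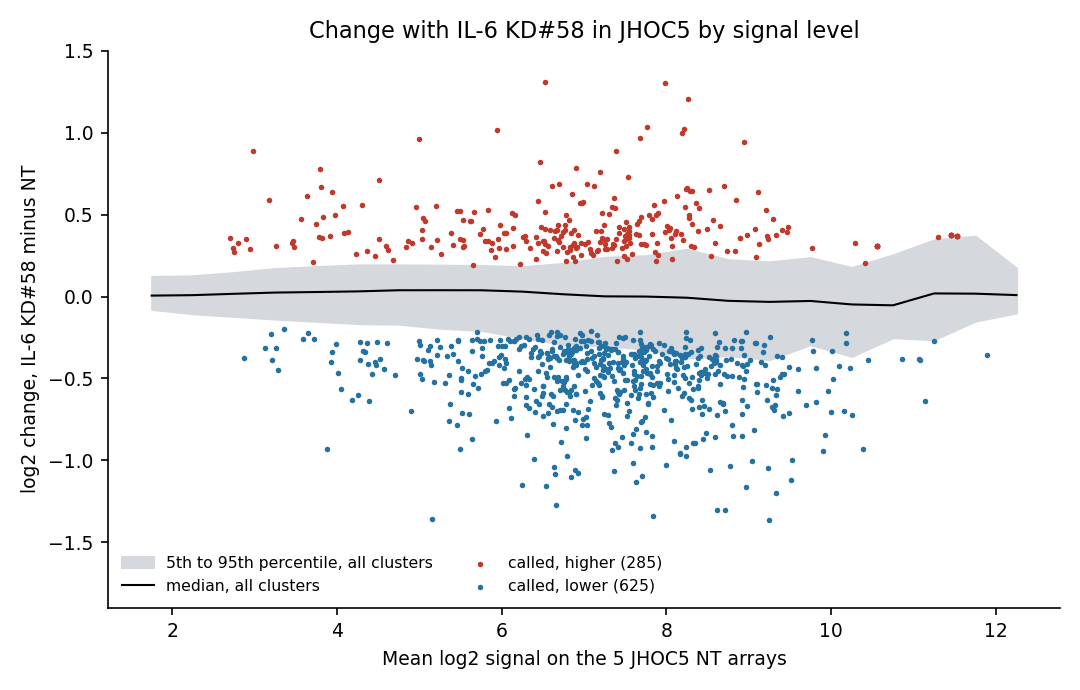
Log2 change with IL-6 KD#58 in JHOC5 (y axis) against the mean log2 signal on the NT arrays (x axis). Points are the 285 clusters called higher and the 625 called lower, the grey band spans the 5th to the 95th percentile of all clusters in bins of signal, and the line is their median. Calls are dense above a signal of 6, where falls outnumber rises, and the median line stays near 0.

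Few clusters crossed the middle of the array's range. Of the falls, 560 lay above the array median on all 8 arrays, 31 below it on all 8, and 7 lay above it on all NT arrays and below it on all knockdown arrays. Of the rises, 243 lay above the median on all 8 arrays and 26 below it on all 8. Over all clusters, 46.5% lay above the median on all 8 arrays. Most calls thus were shifts within the brighter part of the array's range.

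The 3 knockdown arrays did not weigh equally in the falls. Over the 625 falls, the median log2 difference from the NT mean was -0.555, -0.395 and -0.381 on knockdown arrays a, b and c, against -0.06 to 0.06 on the NT arrays. Array a was the farthest from the NT mean for 493 of the 625, array b for 82 and array c for 50. Over the 285 rises the medians were 0.333, 0.364 and 0.433 on arrays a, b and c, against -0.04 to 0.03 on the NT arrays, and array c was the farthest for 167. Over all 65526 clusters, array a had 990 clusters at least 1.5-fold below the NT mean and 241 above. Array b had 213 below and 213 above, and array c 264 below and 301 above. NT arrays, which enter their own mean, had 22 to 65 below and 26 to 113 above.

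**Figure D3:**
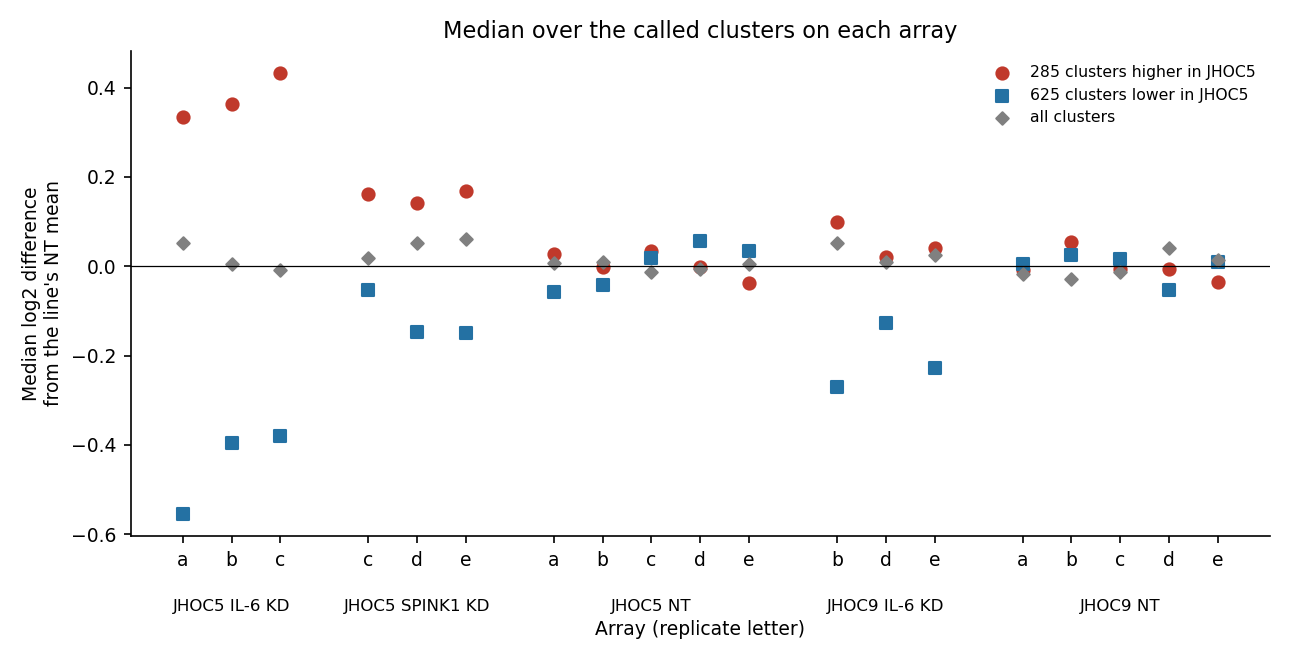
Median log2 difference from the NT mean of the same line (y axis) on each array (x axis, by group and replicate letter), over the 285 clusters called higher and the 625 called lower in JHOC5 and over all clusters. The called clusters were chosen on the JHOC5 IL-6 KD and NT arrays. The JHOC9 arrays entered that choice through the shared estimate of spread, not through the change. On the JHOC9 IL-6 KD arrays the falls have medians of -0.27, -0.13 and -0.23.

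Leaving out single arrays moved the counts. Without IL-6 knockdown replicate a, 510 clusters were called, 261 lower and 249 higher, so falls and rises were nearly equal in number. Without knockdown replicate b there were 473 falls and 159 rises, and without replicate c 487 falls and 133 rises. Without NT replicate d the count was 595, with 407 falls and 188 rises, and without NT replicate e 187 rises were called. With array weights the balance turned, at 1586 lower and 1783 higher. In that fit knockdown array a had a weight of 0.319, b 3.28 and c 0.757. Whether the larger shift of array a has a technical source was not tested.

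A smaller set of calls held throughout. In the reported fit and 18 other settings, which were the block by replicate letter, smaller sets of arrays, a filter on dim clusters, other normalizations, the other table, other variance models and each of the 8 arrays left out, 269 of the 910 clusters kept their call and direction. These were 202 falls, 32.3% of all falls, and 67 rises, 23.5% of all rises. Their median log2 change was -0.60 for the falls and 0.52 for the rises, and the smallest change among them was 0.30 in size. The filter on dim clusters left 840 of the 910 to be tested, and all 840 kept their call. Clusters that it removed count as not kept. No called cluster turned its direction in any of these settings. The other table holds the same values before centring, so that setting could not change a call.

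**Figure D4:**
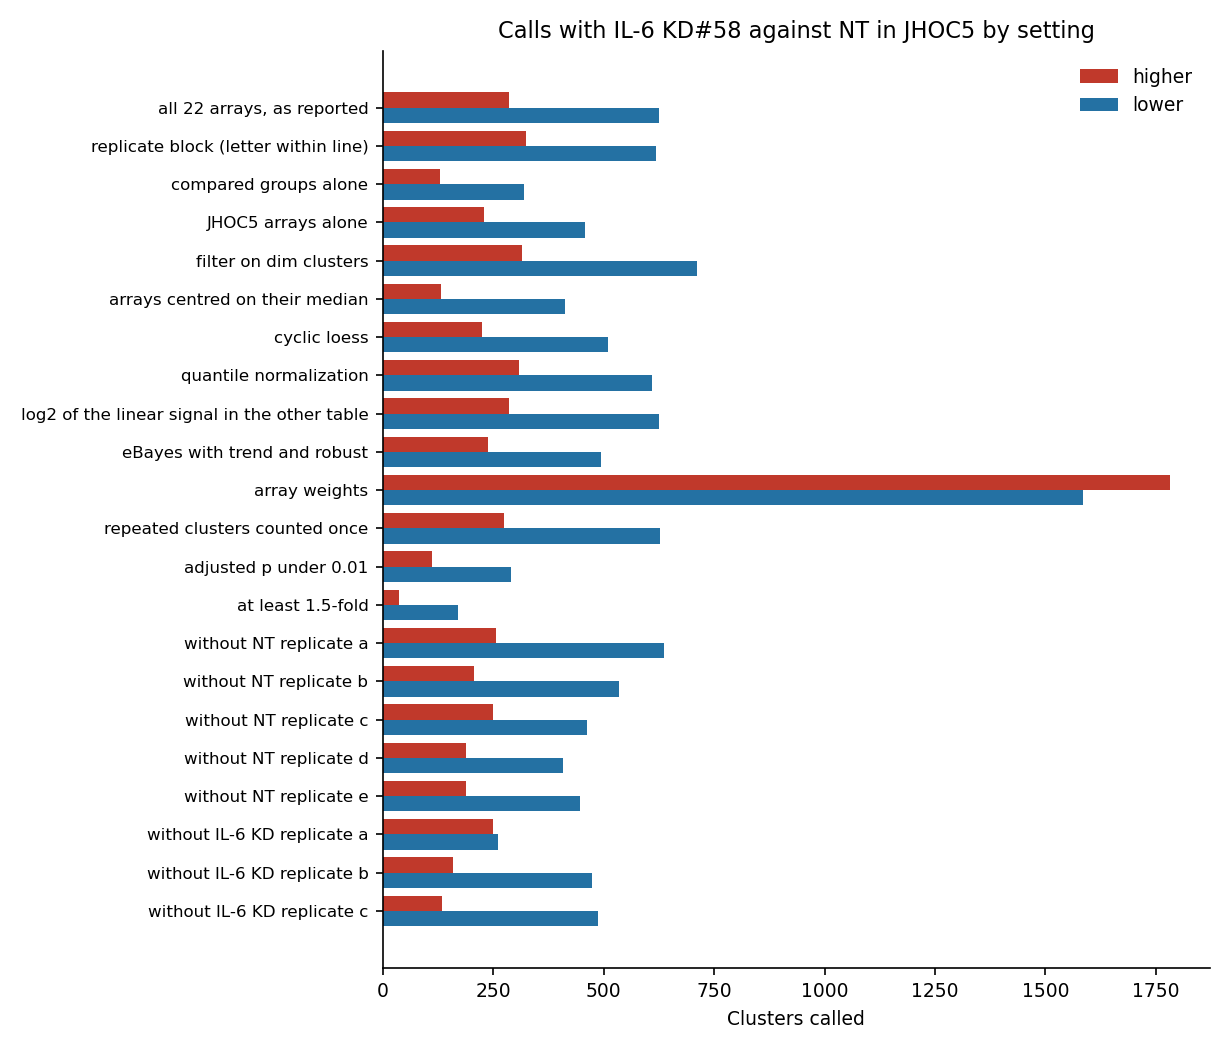
Number of clusters called higher and lower with IL-6 KD#58 than with NT in JHOC5 (x axis) in each setting (y axis). Each pair of bars is 1 fit. Falls outnumber rises in all fits but that with array weights, and nearly match them (261 against 249) without IL-6 KD replicate a.

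The JHOC9 arrays show the JHOC5 calls in another line with its own controls. They did not enter the JHOC5 change itself, but they entered the estimate of spread behind each call. The falls in JHOC5 were mostly lower with the IL-6 virus in JHOC9 as well, at a smaller size, and the rises had a median near 0 there. Choosing the clusters by their JHOC5 change favours larger sizes in JHOC5. A smaller size in JHOC9 would thus be expected even with equal changes in both lines. Of the 625 falls, 555 had a JHOC9 change below 0 (88.8%), where 37.3% of all clusters did, and their median JHOC9 change was -0.21 on the log2 scale, against -0.44 in JHOC5. Of the 285 rises, 209 had a JHOC9 change above 0 (73.3%), where 62.7% of all clusters did, and their median JHOC9 change was 0.04, against 0.37 in JHOC5. All 3 JHOC9 knockdown arrays lay below all 5 JHOC9 NT arrays for 259 of the falls (41.4%), against 2.59% of all clusters. They lay above for 33 of the rises (11.6%), against 3.61% of all clusters. The called clusters were brighter than most, with a median JHOC5 NT log2 signal of 7.33 for falls and 7.09 for rises, against 4.82 over all. The shares over all clusters were not matched for signal.

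The JHOC9 share of the rises depended on the scaling and on single arrays. Rises and falls were called anew in JHOC5 in each setting, so the clusters are not the same 285 and 625. With each array centred on its median, 132 rises and 412 falls were called. Of these, 50.8% of the rises and 93.2% of the falls had the same direction in JHOC9, where 58.1% of all clusters lay below 0. With cyclic loess 225 rises and 509 falls were called, and 69.8% and 93.1% had the same direction, with 53.2% of all clusters below 0. With array weights 1783 rises and 1586 falls were called, and 53.6% and 66.9% had the same direction, with 38.7% of all clusters below 0. There the rises lay above 0 less often than all clusters did. When JHOC9 IL-6 KD#58 replicate b was dropped, 57.5% of the rises lay above 0 and 42.9% of all clusters below it, so the rises did not stand apart from the other clusters. The falls then had the same direction in 86.0%. Without JHOC9 NT replicate e, 66.2% of the rises lay above 0 and 36.4% of all clusters below it. Without JHOC9 IL-6 KD#58 replicate e these shares were 66.3% and 39.1%. With each line in a fit of its own, 74.1% of the rises and 93.2% of the falls called in JHOC5 kept their direction in JHOC9, at medians of 0.04 and -0.247 there. With any single IL-6 KD#58 or NT array of either line left out and the falls called anew, their median JHOC9 change stayed between -0.172 and -0.275, and it was -0.0892 with array weights. Leaving out replicate b of the JHOC9 knockdown gave the value nearest 0 among these arrays.

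Called in both lines were 87 clusters, all lower, out of 159 called in JHOC9 (0.243%). They made up 13.9% of the JHOC5 falls and 65.9% of the 132 JHOC9 falls (0.201%). No JHOC5 rise was among the 27 JHOC9 rises (0.0412%) by limma, a list too short for this absence to say much. In JHOC9, 50 of the 285 rises and 391 of the 625 falls had a limma unadjusted p under 0.05 in the same direction. The matching shares over all clusters were not counted, so these counts have no background to be read against. With each line in a fit of its own, so that the lines shared no estimate of spread, 457 falls were called in JHOC5 and 31 in JHOC9. Of these, 22 were in both, 4.81% of the JHOC5 and 71% of the JHOC9 list. The 87 shared falls numbered 37 when JHOC9 IL-6 KD#58 replicate b was dropped and 20 when replicate e was. Dropping NT replicate a, b or c of JHOC9 gave 47, 51 and 43.

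**Figure D5:**
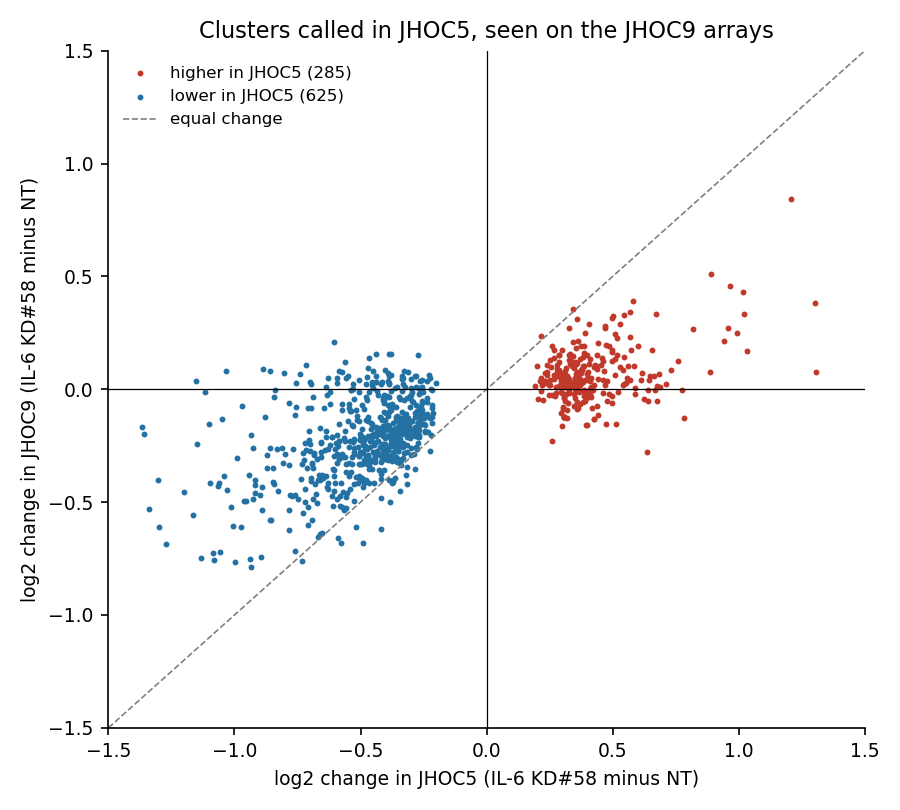
Log2 change with IL-6 KD#58 in JHOC9 (y axis) against that in JHOC5 (x axis) for the clusters called in JHOC5. Points are clusters, 285 higher and 625 lower in JHOC5, and the dashed line marks equal changes. Falls lie mostly below 0 in JHOC9 too, between the dashed line and 0, and rises spread close around 0. The clusters were chosen for their JHOC5 change, which favours larger sizes on the x axis.

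A difference between the lines was tested directly, as the JHOC5 change minus the JHOC9 change. Only 2 of 65526 clusters passed (0.00305%), and 4373 had an unadjusted p under 0.05, so a smaller JHOC9 change was not shown for single rises or falls beyond these. The first was TC08001062.hg.1, the largest JHOC5 rise, with a difference of 1.23 ± 0.18 (SE) and a limma adjusted p of 0.0398. In JHOC9 its log2 signal was 7.26 ± 0.16 with IL-6 KD#58 (SD, n = 3) and 7.18 ± 0.20 with NT (SD, n = 5), a level between those of the JHOC5 groups.

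The other was TC05001784.hg.1, with code 5, which was chosen after its values were seen, because it passed this test. Its log2 signal in JHOC5 was 6.90, 7.06 and 6.95 on the knockdown arrays, against 7.96, 7.99, 8.03, 7.98 and 8.03 on the NT arrays. In JHOC9 it was 6.60, 6.76 and 6.48 on the knockdown arrays, against 7.04, 7.07, 7.06, 7.02 and 7.09 on the NT arrays. It fell without overlap in both lines, by 1.03 in JHOC5 and by 0.45 in JHOC9 on the log2 scale, with limma adjusted p of 1.21e-08 and 1.75e-03. The difference of -0.58 ± 0.09 (SE) had a limma adjusted p of 0.0398. Both differences lost their call in 16 of 25 other settings, with limma adjusted p of up to 0.253 for TC05001784.hg.1 and 0.204 for TC08001062.hg.1.

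The SPINK1 KD #9 arrays of JHOC5 give a second knockdown virus in the same cells. SPINK1 encodes a secreted trypsin inhibitor. Since both viruses are compared with the same NT arrays, the IL-6 arrays were set directly against the SPINK1 arrays, where 3914 clusters differed (5.97%), 1805 lower (2.75%) and 2109 higher (3.22%). Of the 625 falls against NT, 345 were also lower than with the SPINK1 virus, 18 were higher and 262 did not pass. Of the 285 rises, 110 were also higher than with the SPINK1 virus, 7 were lower and 168 did not pass. The falls and rises were chosen on knockdown arrays that this test reuses, which favours such calls. The median log2 change against NT of the 625 falls was -0.44 with the IL-6 virus and -0.10 with the SPINK1 virus, and that of the 285 rises was 0.37 with the IL-6 virus and 0.14 with the SPINK1 virus. With the SPINK1 virus against NT, 176 of the 625 falls were also called lower, 30 were higher and 419 did not pass. Among the 285 rises, 104 were also called higher with it, 23 were lower and 158 did not pass. The shared NT arrays favour calls in the same direction, and the share over all clusters is not given here.

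The named clusters differed in this respect. TC12003230.hg.1 had 9.29 ± 0.14 with the IL-6 virus and 9.22 ± 0.17 with the SPINK1 virus (SD, n = 3 each), a difference of 0.08 ± 0.12 (SE) that did not pass, with a limma adjusted p of 0.927. TC08001062.hg.1 was higher with the IL-6 virus than with the SPINK1 virus by 0.64 ± 0.14 (SE), with a limma adjusted p of 7.24e-03. Both clusters also rose with the SPINK1 virus against NT, TC12003230.hg.1 by 1.23 ± 0.10 and TC08001062.hg.1 by 0.67 ± 0.13 (SE). The limma adjusted p of these rises were 8.42e-08 and 1.57e-03. The falls of TC09000323.hg.1 and TC01004414.hg.1 stood out against the SPINK1 arrays too, with differences of -1.48 ± 0.30 and -1.18 ± 0.18 (SE) and limma adjusted p of 2.86e-03 and 1.60e-04. Against NT their log2 changes with the SPINK1 virus were 0.11 ± 0.27 and -0.18 ± 0.16 (SE). TC05001784.hg.1 was lower with the IL-6 virus than with the SPINK1 virus by 0.88 on the log2 scale, at 6.97 ± 0.08 against 7.85 ± 0.10 (SD, n = 3 each), with a limma adjusted p of 5.42e-08.

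By the chromosome code in the ID, calls were spread widely. Over all clusters 1.39% were called, and 68.7% of these calls were falls. Over the 24 codes with at least 300 clusters, falls outnumbered rises in 19 and rises outnumbered falls in 4. Code 4 had the highest share of calls among them, 2.15%, with 56 falls and 7 rises, and codes Y and 21 the lowest, 0.56% and 0.564%. Codes 9, 17, 20 and 22 held more rises than falls, with 20 against 17, 19 against 17, 12 against 11 and 7 against 5. These shares are a description, and the codes were not tested against each other.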

How the data were processed

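Per the labels, 200 ng of total RNA went onto each GeneChip Human Transcriptome Array 2.0. The deposited log2 values were made with RMA (background correction, normalization across arrays and probe summary), per the submitters' processing notes. The RMA version, annotation and build were not given in the sources used here. They equal the log2 of the deposited linear intensity minus each cluster's median over 22 arrays, within 2.06e-06. RMA hides an overall shift in RNA content.

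Groups came from the titles. One model of 6 group means over all 22 arrays was fitted in limma 3.58.1 (R 4.3.3, with version 1.17.8 of data.table), with eBayes, two-sided tests and Benjamini-Hochberg adjustment at 0.05 over 65526 clusters. It had 16 residual and 4.22 prior degrees of freedom. It was tested on simulated data. Figures used matplotlib 3.10.9 (Python 3.11.15). Named clusters are the 2 largest rises and falls called with no overlap between groups. The chromosome code was read from the ID, as the characters that follow TC, by the maker's convention. Clusters agreeing within 1e-05 on all arrays count as repeats. The planned gene lists needed names and were not used. The comparison, rules and alternatives were chosen with earlier results of these data known.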

Additional observations from a re-analysis of the deposited data

Results flagged for a closer look

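The change with the IL-6 virus differed between JHOC5 and JHOC9 by the test of the difference for TC08001062.hg.1, at 1.231 on the log2 scale, and for TC05001784.hg.1, at -0.583 (JHOC5 minus JHOC9, 3 against 5 arrays in each line).

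The median over the 625 JHOC5 falls lay -0.127 to -0.271 from the JHOC9 NT mean on the JHOC9 IL-6 KD#58 arrays. Among the 5 JHOC9 NT arrays, replicate d stood apart in this median, at -0.0533. Its gap passed the 95% critical value of Dixon's test, which chance passes in about 1 in 20 groups. The same rule was applied to the named clusters and to other values per array in the NT groups of both lines, and only this gap passed. With several checks, a pass by chance is likelier than that rate. Without JHOC9 NT replicate d, 102 clusters were called in both lines, against 87 with it.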

How the results depend on the processing

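With the IL-6 virus against NT in JHOC5, 910 calls (285 higher, 625 lower) became 447 (128, 319) with the compared groups alone, 544 (132, 412) with arrays centred on their median, 3369 (1783, 1586) with array weights, 401 (111, 290) at an adjusted p under 0.01 and 206 (37, 169) at 1.5-fold or more. Single arrays left out gave 510 to 892 calls, 133 to 255 higher and 261 to 637 lower. The other 8 settings each stayed within 1.5 times in all these counts. They include the linear signal in the other table, which could not change a count. The IL-6 virus against the SPINK1 virus gave 3914 calls (2109 higher, 1805 lower), 1966 (1150, 816) with the compared groups alone, 8118 (3959, 4159) with array weights, 2386 (1401, 985) at 0.01 and 1267 (834, 433) at 1.5-fold. Its lower calls were 1197 with the block and 1141 with arrays centred, and single arrays left out gave 2727 to 3649 calls (1455 to 2240 higher, 1218 to 1541 lower). The 2 differences between lines were 7 with the block, 507 with array weights, 1 at 1.5-fold, 0 to 12 without single arrays (3518 to 6431 at an unadjusted p under 0.05), and 0 by limma with arrays centred, cyclic loess, quantile normalization, eBayes with trend and robust, or at 0.01, where 4232, 4600, 4599, 4241 and 4373 clusters had an unadjusted p under 0.05. The 87 calls shared with JHOC9 were 22 with each line in a fit of its own and 20 to 124 without single arrays. The cause of these shifts was not tested, apart from the stricter thresholds and fewer arrays.

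Deviations from the group mean of same-lettered knockdown and NT arrays correlated at 0.524 for a, -1.59e-03 for b and 0.401 for c. The knockdown letters are not said to mark shared experiments, and the reported fit was set up without them. Arrays a and c correlated best with their own letter, and knockdown array b with NT array d, at 0.245. With the letter as a block 941 clusters were called, 323 higher and 618 lower, and 656 of the 910 kept their call. Dim signal limits the reach: of clusters with an NT log2 signal under 4, 0.161% were called.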

Other observations

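Some rises repeat the same measurement. Of the 285 rises, 17 fell into 3 sets of clusters with the same values on all arrays, and none of the 625 falls repeated another cluster. Leaving out the first cluster of each set, 14 of the 285 rises repeated another, as did 1034 of all 65526 clusters. The sets held 6, 6 and 5 clusters and were among the brightest calls, with NT log2 signals of 10.6, 11.5 and 11.5 and log2 changes of 0.31, 0.37 and 0.37. The second set spread over 5 chromosome codes. Counted once, 273 rises and 628 falls were called.

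Clusters with consecutive ID numbers were called together in a few places. Of the 64408 such pairs, 21 were both lower, 10 both higher and 4 opposite, and no pair called in the same direction had the same values. The next ID was also lower for 3.45% of the falls, against 0.954% of all clusters, and also higher for 3.64% of the rises, against 0.435%. Whether ID numbers follow position is not stated in the files.

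The 22 clusters with code M, the mitochondrial genome in the array maker's naming, had a median NT log2 signal of 12.96. None was called by limma and 0 had an unadjusted p under 0.05. Over all clusters 1.39% were called and 9.16% had such a p, so 22 clusters are too few for this absence to say much. Their changes lay between -0.18 and 0.01, with 21 of 22 below 0. In the codes with at least 300 clusters, 32.4% (code 19) to 45.7% (code 4) lay below 0. The median change was -0.0332 for code M and -0.0197 for all clusters with an NT log2 signal of 8 and over. The group was not tested.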
